A study of Mus musculus with 50 samples.

Results

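The 10 genes described here are the transcription factor gene Irf1, the guanylate-binding protein (GBP) genes Gbp2, Gbp3, Gbp5, Gbp6 and Gbp7, and the immunity-related GTPase (IRG) genes Irgm1, Igtp, Iigp1 and Tgtp2. They were taken by symbol from the 37469 genes of the count table, through the Ensembl identifier of each row, and all 10 were among the 19327 genes that passed the filter on low counts. Expression was measured by bulk RNA sequencing of whole p53/MCA sarcomas, and 48 tumors form 8 groups. In the primary model, Trp53 fl/fl mice of 129/SvJae background, 6 to 10 weeks old, received a Cre-expressing adenovirus and 300 µg of the carcinogen 3-methylcholanthrene (MCA) in the gastrocnemius muscle, and the 32 tumors that arose there were 8 per treatment. In the transplant model, 50000 cells of line 402230, a single line from a single untreated primary sarcoma, were placed in the same muscle of syngeneic mice, and each treatment had 4 tumors. All mice received 200 µg of an antibody to PD-1 or of an isotype control, then 0 or 20 Gy of focal radiotherapy (RT), and tumors were taken 3 days later. Untreated below means isotype antibody and 0 Gy, so that every group, controls included, had received an antibody. The design asks which genes differ between the models and which move with each treatment in each model.

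Interferon-gamma is a cytokine made mainly by activated T cells and natural killer (NK) cells, and nearly every cell type carries its receptor. The receptor signals through the kinases JAK1 and JAK2 to short palindromic promoter elements (GAS, gamma-activated sequence), and a first wave of genes that includes Irf1 is switched on. IRF1 is itself a transcription factor and binds the interferon-stimulated response element (ISRE), so that it drives a second wave in which the GBPs and the IRGs are prominent. Both families are GTP-hydrolysing proteins of cell-autonomous defence that gather on intracellular vacuoles and bacteria, and type I interferon can also raise many of them.

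Levels are given as CPM, read counts scaled by the library total, and total counts per tumor ran from 31810461 to 54008259. Labels give the replicates only as separate samples, so p-values measure the spread between these samples, and every pair of libraries within a group differed by more than sampling noise. In whole tumors, more cells of a type and more RNA per cell cannot be told apart. All transplants came from line 402230, so that the transplant model and this line cannot be told apart either. The p-values between models hold no spread between lines. The 2 unreplicated libraries of line 402230 went against their labels. The library labelled parental primary tumor had 0.492 CPM of Csf1r, 0.0670 of C1qa and 0.112 of Pecam1, markers of macrophages and endothelium that stood at 234, 254 and 104.4 CPM in the library labelled cell line. Neither library entered a comparison between groups, other than in an alternative setting. A tumor also stood apart. Primary 20 Gy anti-PD-1 replicate 5 had 6.30 log2 CPM of Cdkn1a, a gene that damaged cells switch on, where the other 15 irradiated primary tumors had 7.22 to 8.87 and the 16 unirradiated ones 4.81 to 6.42. Some of its marker sums were also low, at 14.6 CPM for NK cells and 1596 for macrophages. The other 15 irradiated primary tumors had at least 83.1 and 2640, and the 16 unirradiated ones at least 15.4 and 2086. The dendritic cell and the B and plasma cell sums of replicate 5 were the lowest as well. Other sums lay inside the range of the other 15 irradiated primary tumors. These were neutrophils (290 CPM, range 32.8 to 891), mesenchymal genes (19416, range 8782 to 41107), T cells, endothelium and skeletal muscle. Comparisons of the 10 genes between groups that use primary 20 Gy anti-PD-1 replicate 5 are given with and without it, and correlations include it.

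Irf1 (chr11:53770014-53778374, + strand), Irgm1 (chr11:48861968-48871683, - strand), Igtp (chr11:58199556-58207591, + strand) and Tgtp2 (chr11:49057194-49064206, - strand) lie on chromosome 11. Gbp2 (chr3:142620602-142638008, + strand), Gbp3 (chr3:142560026-142573209, + strand), Gbp5 (chr3:142493978-142522344, + strand) and Gbp7 (chr3:142530342-142550149, + strand) form a cluster on chromosome 3, whereas Gbp6 (chr5:105270702-105293698, - strand) belongs to the GBP cluster of chromosome 5. Iigp1 lies apart from both. All coordinates are of GRCm38 (mm10) and all 10 genes are annotated as protein coding. Some counts are less certain than others, since near-identical copies and overlapping exons share reads. Tgtp2 has the near copy Tgtp1, Gbp6 shares 29.0% of its exon bases with Gm43302 on the same strand, Gbp7 shares 11.3% with the pseudogene Gm43802 and Igtp shares 8.01% with Irgm2.

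Promoters of 8 of the 10 genes were read from RefSeq (GRCm38.p6), each from 250 bases before to 50 bases after an annotated start. RefSeq starts need not coincide with the gene ends given above. Gbp6 and Iigp1 had no entry. The promoters were searched on both strands for the core of the ISRE, which reads GAAA, any 2 bases and GAAA again (TTTC, 2 bases and TTTC on the other strand), and for the GAS palindrome TTCNNNGAA. The following 60-base windows are shown because they hold the ISRE core, or in Irf1 the GAS palindrome, 5′ to 3′ on the strand of the gene, with the matches in capitals.
Irf1, chr11:53769898-53769957 (+ strand): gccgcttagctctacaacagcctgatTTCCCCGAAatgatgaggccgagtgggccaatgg
Gbp2, chr3:142620579-142620638 (+ strand): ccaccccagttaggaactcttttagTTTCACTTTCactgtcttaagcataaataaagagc
Gbp3, chr3:142559980-142560039 (+ strand): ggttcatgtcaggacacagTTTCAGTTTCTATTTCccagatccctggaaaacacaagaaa
Gbp5, chr3:142496744-142496803 (+ strand): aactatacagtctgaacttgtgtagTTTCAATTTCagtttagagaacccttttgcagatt
Gbp7, chr3:142530258-142530317 (+ strand): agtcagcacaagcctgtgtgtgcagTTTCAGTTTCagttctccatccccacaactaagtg
Irgm1, chr11:48871410-48871469 (- strand): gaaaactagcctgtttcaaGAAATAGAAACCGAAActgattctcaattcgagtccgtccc
Igtp, chr11:58199497-58199556 (+ strand): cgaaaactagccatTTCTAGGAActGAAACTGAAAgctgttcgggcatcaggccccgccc
Tgtp2, chr11:49064248-49064307 (- strand): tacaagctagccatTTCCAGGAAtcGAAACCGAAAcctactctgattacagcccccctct
All 7 GTPase genes with a promoter held the ISRE core in the first one listed. By the same rule 3.49% of all genes did, and 3.44% of the 32851 RefSeq promoters of this length. Irf1 held no ISRE core. Irf1, Gbp5, Gbp7, Igtp and Tgtp2 held the GAS palindrome in the first promoter, as did 8.47% of all genes. Gbp3 and Irf1 each had another listed promoter, which held neither the ISRE core nor the GAS palindrome. In Gbp3 and Irgm1 the capitals are a pair of overlapping ISRE cores that share 4 bases. In the GBP genes shown the core reads in the reverse orientation and in the IRG genes shown in the forward one. This is not a rule of the family, since the related GTPase gene Gm12250 held its ISRE cores in the reverse orientation. In Igtp and Tgtp2 the GAS palindrome, a spacer of 2 bases and the ISRE core follow each other directly. This arrangement, which was searched for after the sequences had been seen, occurred in 5 of the 32851 promoters (0.0152%), the others being Irgm2, Tgtp1 and Gm12185, IRG genes of the same family that share ancestry. A match of letters is a description and not a shown binding site.

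Every one of the 10 genes had its lowest group mean in untreated primary tumors, the next in primary tumors given anti-PD-1 alone, and the third in untreated transplants. Irradiated primary tumors held ranks 4 to 6 of 8 and transplants given anti-PD-1 or RT ranks 4 to 8, so that the upper part of the order differed between genes. Between neighbours in this order the libraries overlapped for every gene. Per kilobase of exon, Gbp2 was the most abundant of the 10 genes in all 8 groups, at 31.5 ± 16.1 CPM per kb (SD, n = 8) in untreated primary tumors and 236 ± 101.5 (n = 4) in transplants given RT and anti-PD-1. Gbp6 was the least abundant in all 8 groups, at 1.28 ± 1.15 and 10.0 ± 2.67 CPM per kb in the same groups. Over the 48 tumors, levels spanned 10.7-fold for Irf1 and 57.0-fold for Iigp1, the narrowest and the widest range of the 10.

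**Figure D1:**
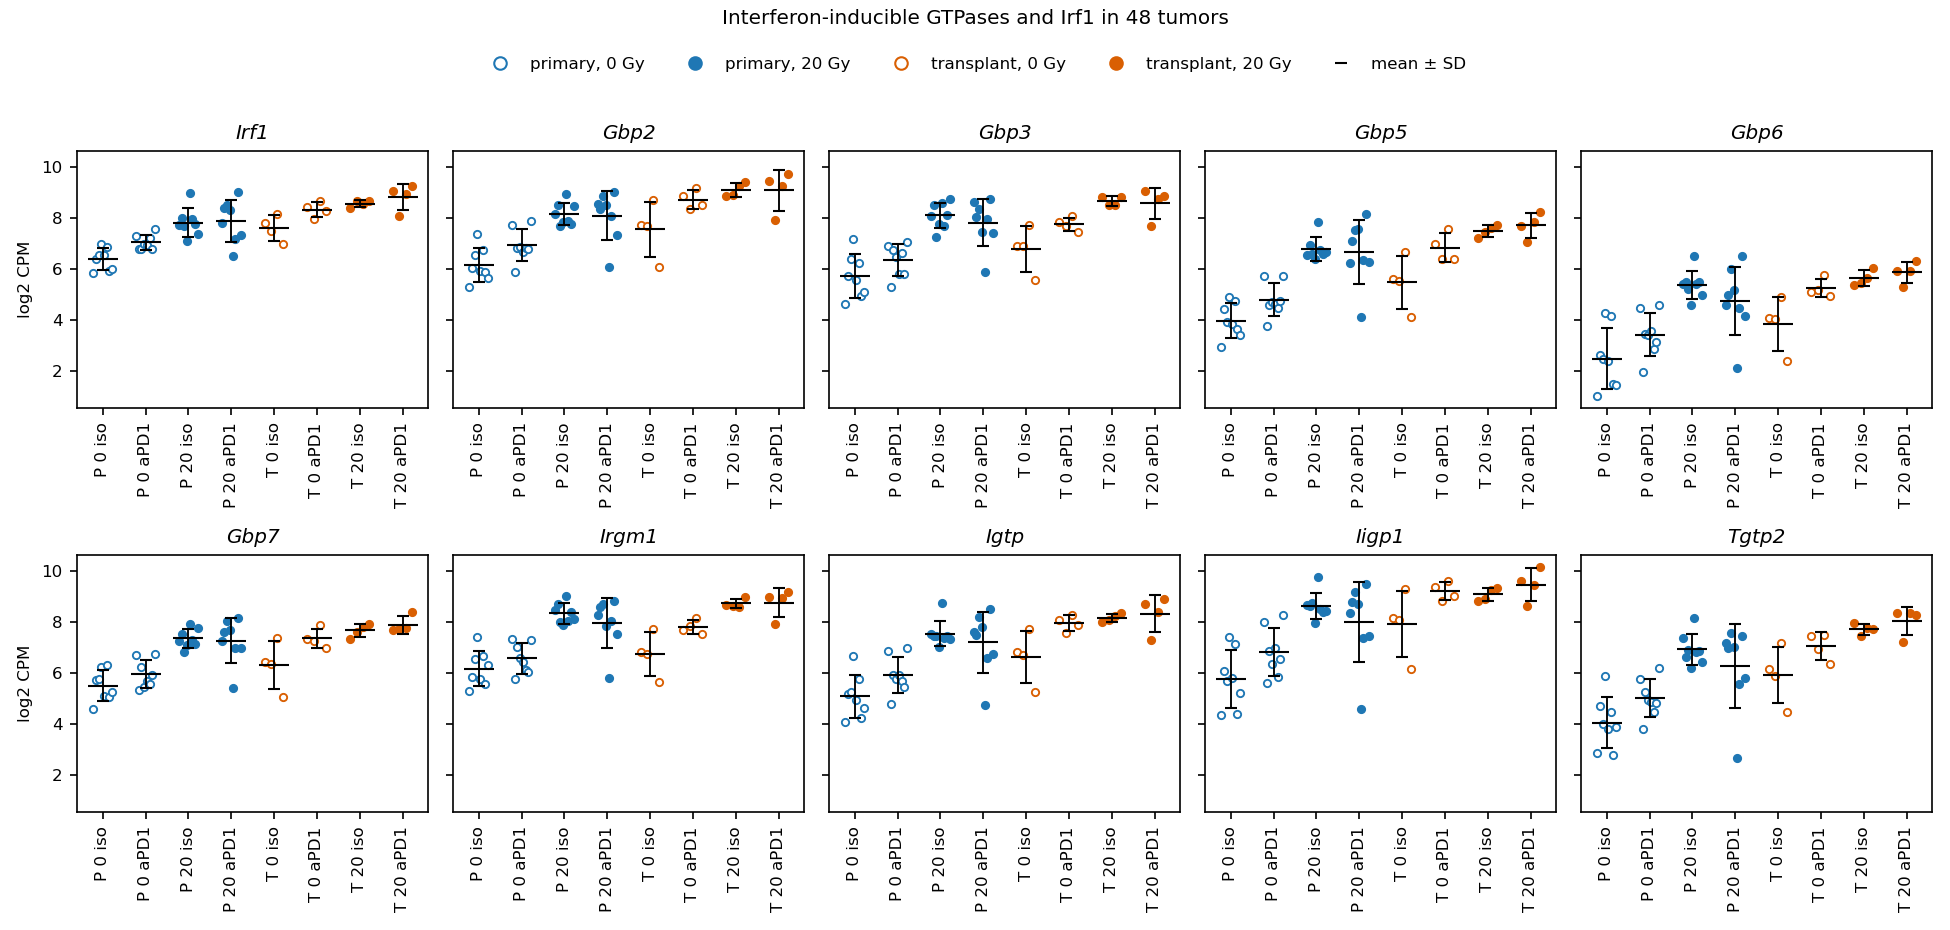
Log2 CPM of the 10 genes (vertical axis) in the 8 groups (horizontal axis; P, primary; T, transplant; 0 or 20 Gy; iso, isotype; aPD1, anti-PD-1). Each point is a tumor and bars give the mean and SD. Untreated primary tumors are lowest for each gene, and the low point in the primary 20 Gy anti-PD-1 group is replicate 5.

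Untreated transplants had more Irf1 and GTPase transcript than untreated primary tumors. In this comparison 6 of the 10 genes were higher in transplants (Irf1, Gbp2, Gbp5, Igtp, Iigp1 and Tgtp2), where 3.88% of all tested genes were higher, by edgeR's quasi-likelihood test with Benjamini-Hochberg adjustment over all tested genes, which gave every adjusted p below unless another tool is named. The median log2 fold change was 1.37 for the 10 genes and -0.01 for all tested genes. Irf1, the transcription factor of the set, stood at 124.4, 178, 223 and 281 CPM in the 4 untreated transplants and at 56.7 to 124.04 CPM (median 87.7, n = 8) in untreated primary tumors, which gave a log2 fold change of 1.23 ± 0.30 (SE, 2.34-fold, adjusted p = 0.00520). All 4 transplants were above every primary tumor, though the lowest was level with the highest primary tumor. Irf1 was the only one of the 10 genes whose groups did not overlap here, as held for 2.87% of all tested genes.

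Iigp1 encodes an effector IRG that coats parasite vacuoles (chromosome 18, 60376027 to 60392634, + strand), and it had the largest difference of the 10 here. It stood at 70.6, 266, 287 and 624 CPM in untreated transplants and at 20.1 to 169 CPM (median 53.0, n = 8) in untreated primary tumors, which gave a log2 fold change of 2.16 ± 0.53 (SE, 4.46-fold, adjusted p = 0.00637). In 3 of the 4 transplants it exceeded every primary tumor, while the lowest transplant fell inside the primary range. Gbp2, which is recruited to vacuoles and helps to activate the inflammasome, stood at 67.2, 207, 212 and 413 CPM against 38.6 to 163 CPM (median 62.1, n = 8), which gave a log2 fold change of 1.51 ± 0.38 (SE, adjusted p = 0.00835). Its lowest transplant lay close to the primary median. The same transplant, replicate 4, was the lowest and replicate 3 the highest of the group for all 10 genes. Gbp3, Gbp6, Gbp7 and Irgm1 did not pass, with values of 1.01 ± 0.38 (SE, adjusted p = 0.0831), 1.15 ± 0.51 (SE, adjusted p = 0.148), 0.91 ± 0.34 (SE, adjusted p = 0.0740) and 0.59 ± 0.36 (SE, adjusted p = 0.309). Without transplant replicate 3, 1 of the 10 genes passed, and without primary replicate 4, the highest of its group for 9 of the 10 genes, 9 did.

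Under anti-PD-1 without RT all 10 genes were higher in transplants than in primary tumors, where 3.39% of tested genes were, with a median log2 fold change of 1.67 against 0.01 for all tested genes. Values ran from 1.14 ± 0.36 (SE, adjusted p = 0.0406) for Irgm1, a regulatory IRG, to 2.15 ± 0.53 (SE, adjusted p = 0.00832) for Iigp1. For each of the 10 genes all 4 transplants were above all 8 primary tumors, as in 2.68% of tested genes. Gbp5, which promotes inflammasome assembly, stood at 82.3, 83.6, 125.5 and 190.2 CPM in these transplants and at 13.5 to 52.2 CPM (median 25.1, n = 8) in primary tumors, which gave a log2 fold change of 2.01 ± 0.42 (SE, 4.01-fold, adjusted p = 0.00168). Without transplant replicate 3, the highest of its group for all 10 genes, 5 of the 10 passed, and without replicate 1, 6 did.

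After 20 Gy none of the 10 genes passed between the models in edgeR with isotype antibody, where 2.47% of tested genes were higher in transplants, or with anti-PD-1, where 3.04% were. All 10 differences were positive in both, at 0.18 to 0.90 and 0.47 to 1.35 on the log2 scale. At an unadjusted p under 0.05, 2 and 5 of the 10 genes passed, where 18.6% and 23.9% of all tested genes did, while DESeq2 called 0 and 0, and limma voom 0 and 1 (Tgtp2). In both the groups overlapped for all 10 genes, where 3.24% and 1.01% of tested genes were higher without overlap. The largest difference after RT and isotype was that of Gbp2, 0.90 ± 0.39 (SE, adjusted p = 0.188), and after the combination that of Tgtp2, a T-cell-specific GTPase gene by name, 1.35 ± 0.50 (SE, adjusted p = 0.0888). Without primary 20 Gy anti-PD-1 replicate 5 the median of the 10 after the combination was 0.61 in place of 0.78, with 0 called.

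Marker genes of other cell types were summed in the same tumors. Summed over 10 T cell genes, untreated transplants held 62.5 to 125.2 CPM and untreated primary tumors 17.6 to 79.8. Over 8 NK cell genes the ranges were 33.6 to 148 and 15.4 to 276, and over 10 macrophage genes 2957 to 3356 and 2343 to 5488. Of the T cell genes, 2 (Trbc2 and Cd8a) were higher in transplants, where 3.88% of tested genes were, and of the NK cell genes Klrb1c was lower. The median log2 fold change was 1.71 for the T cell, 0.10 for the NK cell and -0.01 for the macrophage list. It was 1.98 for 7 neutrophil genes (Mmp8 passed), 1.94 for 9 skeletal muscle genes and -0.74 for 9 mesenchymal genes, of which Fn1 and Col1a2 were lower. Of the 19327 tested genes 1988 passed in either direction, of which 750 were higher in transplants and the rest lower. The neutrophil sum was 65.8 to 220.1 CPM in transplants and 13.9 to 80.5 in primary tumors, and the muscle sum 80.2 to 20436 and 65.8 to 6255. The part of these cells in the difference was not tested.

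RT raised all 10 genes in primary tumors given isotype antibody, where 9.19% of tested genes rose. The median log2 fold change was 2.27 against -0.01 for all tested genes, and the values ran from 1.49 for Irf1 to 2.76 for Gbp5. For all 10 genes the 8 irradiated tumors lay above the 8 untreated ones, which held for 1.45% of tested genes. Irf1 went from 56.7 to 124.04 CPM (median 87.7, n = 8) to 135.2 to 499 CPM (median 212, n = 8), which gave a log2 fold change of 1.49 ± 0.26 (SE, 2.81-fold, adjusted p = 5.28e-05). Its highest untreated tumor nearly reached its lowest irradiated one.

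Among the GBPs, Gbp5 went from 7.67 to 29.7 CPM (median 14.5, n = 8) to 82.4 to 228 CPM (median 99.4, n = 8), which gave a log2 fold change of 2.76 ± 0.38 (SE, 6.76-fold, adjusted p = 2.98e-06). Gbp6, the least abundant, went from 1.98 to 19.3 CPM (median 5.32, n = 8) to 23.7 to 89.7 CPM (median 42.2, n = 8), which gave a log2 fold change of 2.54 ± 0.46 (SE, adjusted p = 1.06e-04). Gbp2, Gbp3 and Gbp7, the last linked to oxidative killing of microbes, had log2 fold changes of 1.91 ± 0.34 (SE, adjusted p = 8.03e-05), 2.22 ± 0.34 (SE, adjusted p = 1.15e-05) and 1.79 ± 0.29 (SE, adjusted p = 2.81e-05). The irradiated tumors were separate from the untreated ones for each of these, by the least for Gbp3.

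Of the IRGs, Tgtp2 went from 6.86 to 58.6 CPM (median 15.2, n = 8) to 73.5 to 287 CPM (median 113.8, n = 8), which gave a log2 fold change of 2.68 ± 0.45 (SE, 6.41-fold, adjusted p = 4.54e-05). Iigp1 went from 20.1 to 169 CPM (median 53.0, n = 8) to 247 to 868 CPM (median 378, n = 8), which gave a log2 fold change of 2.59 ± 0.48 (SE, 6.03-fold, adjusted p = 1.42e-04). The regulatory IRGs Irgm1 and Igtp, which control on which membranes the effector proteins act, had log2 fold changes of 2.06 ± 0.31 (SE, adjusted p = 1.15e-05) and 2.31 ± 0.39 (SE, adjusted p = 4.00e-05). Primary 20 Gy isotype replicate 5 was the highest of its group for 9 of the 10 genes. All 10 genes still passed when any 1 of the 48 tumors was left out.

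RT under anti-PD-1 also raised all 10 genes in primary tumors, where 7.92% of tested genes rose, with values from 1.003 to 2.12 and a median of 1.47 against 0.02 for all tested genes. Here none of the 10 had separate groups (0.279% of tested genes were higher without overlap). Gbp5 went from 13.5 to 52.2 CPM (median 25.1, n = 8) to 16.99 to 287 CPM (median 108.3, n = 8), which gave a log2 fold change of 2.12 ± 0.37 (SE, adjusted p = 2.14e-04). Iigp1 went from 48.1 to 307 CPM (median 104.1, n = 8) to 23.9 to 707 CPM (median 368, n = 8), which gave a log2 fold change of 1.39 ± 0.46 (SE, adjusted p = 0.0424). The lowest irradiated tumor was replicate 5 for each of the 10 genes, at 23.9 CPM of Iigp1 where the other 7 had 165 to 707. Without it all 10 genes passed, with a median log2 fold change of 1.64 (1.14 to 2.30). With replicate 5 kept, limma voom called 7 of the 10 and an edgeR fit of these 2 groups alone called 5.

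In transplants given isotype antibody, RT raised Gbp3 and Irgm1, that is 2 of the 10 genes, where 1.82% of tested genes rose. All 10 values were positive (0.81 to 1.81, median 1.41 against -0.03 for all tested genes) and 9 had an unadjusted p under 0.05, where 12.1% of tested genes did. DESeq2 and limma voom each called 3 of the 10. Irgm1 went from 49.1, 106.5, 113.5 and 213 CPM to 387, 397, 405 and 506, which gave a log2 fold change of 1.81 ± 0.44 (SE, 3.52-fold, adjusted p = 0.0190). Gbp3 went from 47.7, 118.9, 119.6 and 210.4 CPM to 360.3, 363, 447 and 455, which gave a log2 fold change of 1.71 ± 0.47 (SE, 3.27-fold, adjusted p = 0.0427). In both genes the irradiated transplants were all above the untreated ones.

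Gbp5 narrowly missed the threshold. It went from 16.97, 46.4, 47.8 and 99.9 CPM to 146.1, 175, 196 and 211, which gave a log2 fold change of 1.79 ± 0.51 (SE, adjusted p = 0.0563), and passed with DESeq2 and with limma voom (adjusted p of 0.0193 and 0.0230). In all, 8 of the 10 genes had groups that did not overlap, all except Gbp7 and Iigp1, as did 9.03% of tested genes. Iigp1 went from 70.6, 266, 287 and 624 CPM to 451, 479.9, 611 and 641, which gave a log2 fold change of 0.81 ± 0.64 (SE, adjusted p = 0.716), and its highest untreated transplant lay inside the irradiated range. The number of genes called rested on single libraries: it was 0 without untreated replicate 1, 2 or 4 or irradiated replicate 4, it was 1 without irradiated replicate 1, 2 or 3, and it was 5 without untreated replicate 3.

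RT under anti-PD-1 called none of the 10 genes in transplants (edgeR; 0 with DESeq2 and 0 with limma voom), where 0.538% of tested genes rose. At an unadjusted p under 0.05, 1 of the 10 passed, where 13.1% of tested genes did. Values were 0.33 to 1.01, all positive, with a median of 0.59 against 0.01 for all tested genes. Irgm1 went from 185, 207, 226 and 281 CPM to 242, 486, 503 and 580.2, which gave a log2 fold change of 1.01 ± 0.43 (SE, adjusted p = 0.287). Igtp went from 186, 235, 269 and 308 CPM to 157, 329.7, 418 and 480.0, which gave a log2 fold change of 0.47 ± 0.52 (SE, adjusted p = 0.778). In both the groups overlapped at irradiated replicate 2, which for Igtp lay below all 4 unirradiated transplants and which was the lowest of its group for 9 of the 10 genes. None of the 10 was free of overlap, where 5.63% of tested genes were higher without it.

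Whether the response to RT differed between the models was tested directly. Under isotype antibody the difference in log2 fold change, transplant minus primary, was negative for all 10 genes (-1.78 to -0.24, median -0.79 against 0.02 for all tested genes), and none passed in edgeR, DESeq2 or limma voom (edgeR called 0.00517% of tested genes). At an unadjusted p under 0.05, 1 of the 10 passed, where 9.87% of tested genes did. The largest was that of Iigp1, -1.78 ± 0.79 (SE, adjusted p = 0.487), with an interval of about 95%, taken from the SE, of -3.33 to -0.24. Under anti-PD-1 the differences were -1.27 to -0.46 and none passed with any of the 3 tools (edgeR called 0% of tested genes). At an unadjusted p under 0.05, 1 of the 10 passed, where 4.76% of tested genes did. Without primary 20 Gy anti-PD-1 replicate 5 the median under anti-PD-1 was -0.98 in place of -0.83, with 0 called. These differences and the comparisons of unirradiated tumors share their unirradiated libraries, so that they are not separate evidence.

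The same marker lists were followed after RT. In primary tumors given isotype antibody, the NK cell sum was 90.3 to 511 CPM after RT and 15.4 to 276 before, the macrophage sum 3266 to 7677 and 2343 to 5488, and the T cell sum 8.67 to 156 and 17.6 to 79.8. Of these lists 3 of 8 NK cell genes (Klrk1, Gzma and Gzmb), 5 of 10 macrophage genes and 1 of 10 T cell genes rose, where 9.19% of tested genes did. Of 7 neutrophil genes 3 rose (Cxcr2, Csf3r and Mmp8), and the sum of all 7 was 32.8 to 791 CPM after RT and 13.9 to 80.5 before. The median log2 fold change was 2.48 for neutrophils, 2.21 for 9 skeletal muscle genes, 1.23 for NK cells, 0.78 for T cells and 0.70 for macrophages. In transplants the NK cell sum was 234 to 365 CPM after RT and 33.6 to 148 before, and the median log2 fold changes of the lists were 1.31 for NK cells, 0.79 for macrophages, 0.06 for T cells, -0.21 for neutrophils and -0.68 for muscle. The mesenchymal sum had a median of 13639 CPM after RT and 23316 before in primary tumors, with ranges of 8782 to 34410.5 and 11857 to 29590. In transplants its medians were 9971 and 9442. The sum of 7 dendritic cell genes was 31.0 to 106.7 CPM after RT and 21.1 to 38.2 before in primary tumors. In transplants it was 69.5 to 100.7 and 32.8 to 58.9. The part of these cells in the response was not tested.

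**Figure D2:**
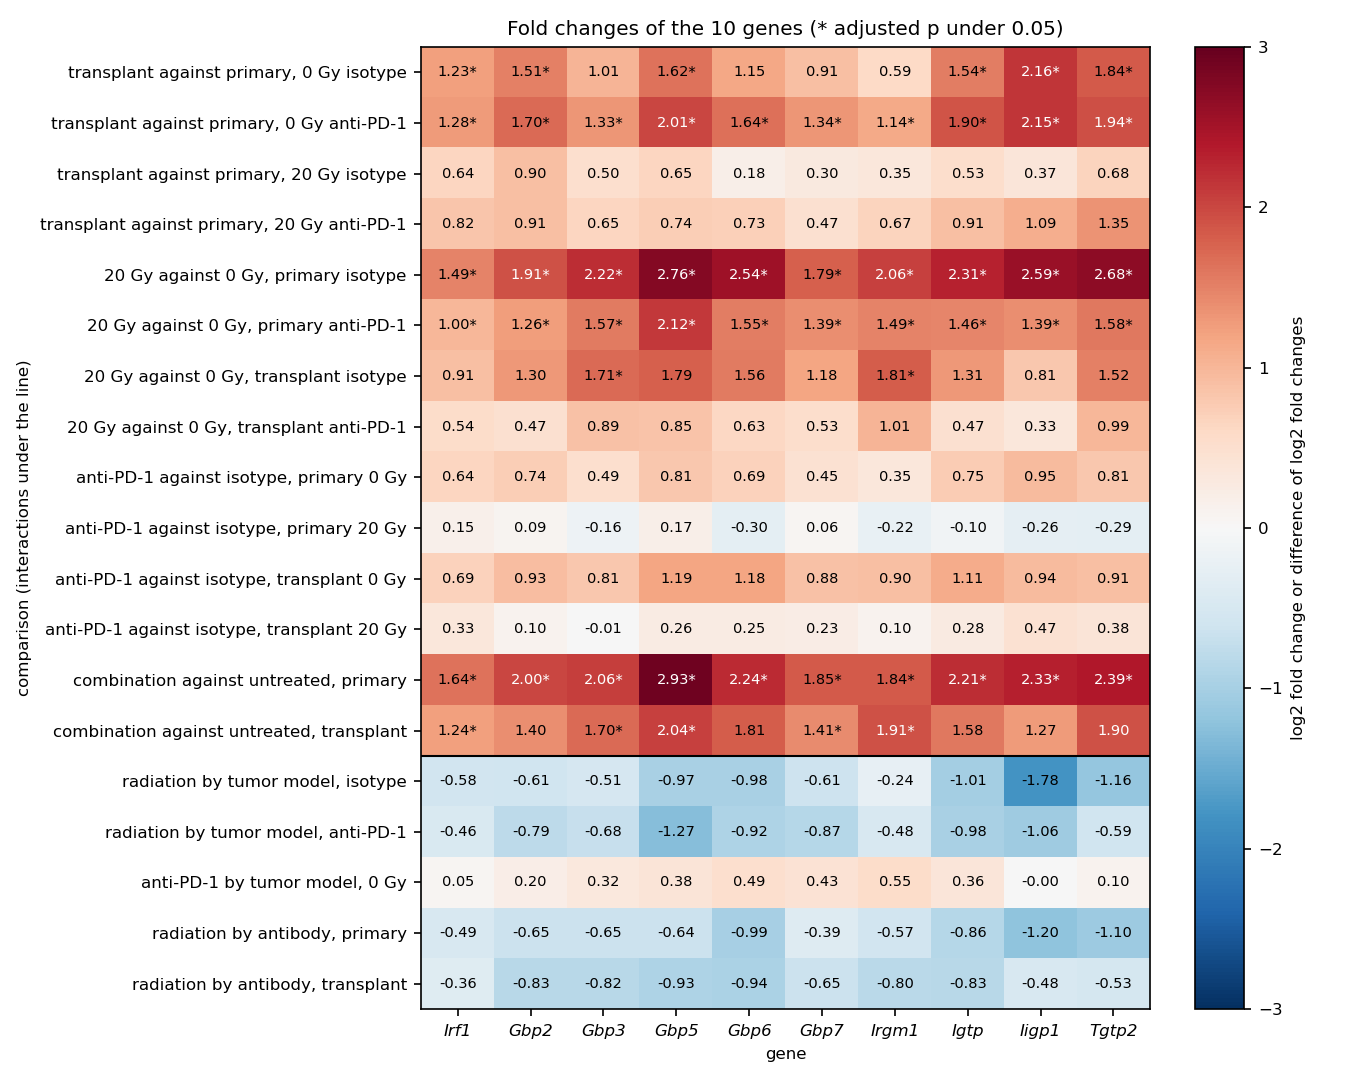
Log2 fold change of each gene (columns) in the 14 comparisons of 2 groups, and under the line the 5 differences of log2 fold changes (rows), with the value printed in each cell and an asterisk at an adjusted p under 0.05. Asterisks fill the rows for RT and for the combination in primary tumors and the row for transplants against primary tumors under anti-PD-1 at 0 Gy.

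Anti-PD-1 called none of the 10 genes in any of the 4 settings, and no gene of all those tested (0% in each, edgeR). DESeq2 called 6 of all tested genes in primary tumors and 1 in transplants without RT, and 40 and 1 at 20 Gy, and limma voom 0 in all 4. Without RT, every value was positive, at 0.35 to 0.95 in primary tumors and 0.69 to 1.19 in transplants, with medians of 0.71 and 0.92 against -0.03 and 0.01 for all tested genes. At an unadjusted p under 0.05, 5 and 4 of the 10 genes passed, where 3.66% and 0.678% of all tested genes did, and DESeq2 and limma voom called 0 of the 10 in both. Irf1 stood at 245, 304, 346 and 407 CPM in transplants given anti-PD-1 and at 124.4, 178, 223 and 281 in untreated ones, which gave a log2 fold change of 0.69 ± 0.36 (SE, adjusted p = 1). Irf1 stood at 107.995 to 188 CPM (median 123.1, n = 8) in primary tumors given anti-PD-1 against 56.7 to 124.04 CPM (median 87.7, n = 8) in untreated ones, which gave a log2 fold change of 0.64 ± 0.25 (SE, adjusted p = 1). The groups overlapped in both models, and Gbp6 in transplants was the only one of the 10 genes without overlap (0.362% of tested genes were higher without overlap).

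At 20 Gy the values for the antibody were -0.30 to 0.17 in primary tumors, with 4 of 10 positive, and -0.01 to 0.47 in transplants, with 9 of 10 positive, and 0 of the 10 genes had an unadjusted p under 0.05 in either, and DESeq2 and limma voom called 0. Without primary 20 Gy anti-PD-1 replicate 5 the primary values were -0.13 to 0.34. The difference between the response to RT with anti-PD-1 and with isotype was negative for all 10 genes in both models, at -1.20 to -0.39 in primary tumors and -0.94 to -0.36 in transplants, and 0 passed in edgeR, also unadjusted, with DESeq2 or with limma voom. The primary median was -0.65, and -0.51 without replicate 5. The difference between the models in the response to anti-PD-1 without RT was -0.0046 to 0.55, and 0 genes passed in the same ways.

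The combination of RT and anti-PD-1 raised all 10 genes over untreated tumors in the primary model, where 11.4% of tested genes rose, and 5 of 10 in transplants (Irf1, Gbp3, Gbp5, Gbp7 and Irgm1), where 4.13% did. These comparisons use the same untreated tumors as those above. Values were 1.64 to 2.93 in primary tumors (median 2.14 against -0.01 for all tested genes) and 1.24 to 2.04 in transplants (median 1.64 against -0.03). In primary tumors the groups overlapped for all 10 genes (0.347% of tested genes were higher without overlap). Without replicate 5 the primary median was 2.32 and all 10 genes passed. Irgm1 in transplants went from 49.1, 106.5, 113.5 and 213 CPM to 242, 486, 503 and 580.2, which gave a log2 fold change of 1.91 ± 0.44 (SE, 3.76-fold, adjusted p = 0.00705), with no overlap. Among the 10 genes, 5 had groups without overlap, as did 8.5% of tested genes. Igtp went from 37.8, 102.5, 112.1 and 210.3 CPM to 157, 329.7, 418 and 480.0, which gave a log2 fold change of 1.58 ± 0.53 (SE, adjusted p = 0.0846), with overlap by its lowest treated tumor. The number of the 10 called in transplants was 0 without untreated replicate 4, 1 without untreated replicate 1 or 2, 2 without treated replicate 3, 3 without treated replicate 1 or 4, and 8 without untreated replicate 3. It was also 8 without primary 20 Gy anti-PD-1 replicate 5, which enters only through the shared spread, 9 with DESeq2 and 6 with limma voom.

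Of 18 other interferon-inducible GTPase genes, 18 rose after RT in primary tumors given isotype antibody, with values of 1.29 to 4.41, and 5 rose in transplants (Gbp9, Gvin1, Gm5431, 9930111J21Rik1 and 9930111J21Rik2). The medians of the 18 were 2.54 in primary tumors and 1.63 in transplants, where 9.19% and 1.82% of all tested genes rose. Among untreated tumors 6 of the 18 were higher in transplants (Gbp2b, Gbp4, Gbp10, Gm12185, Tgtp1 and Gm4841), and under anti-PD-1 without RT 12 were. The shares of all tested genes were 3.88% and 3.39%. Gbp4 was higher in untreated transplants by 2.17 ± 0.56 (SE, adjusted p = 0.00928) on the log2 scale, and Irgm2, the third regulatory IRG, by 0.94 ± 0.38 (SE, adjusted p = 0.107), which did not pass.

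In the pathway upstream, Ifng itself was scarce, with 1 to 219 reads and a median of 22.5 in a tumor. It stood at 1.09 ± 0.763 CPM (SD, n = 4) in transplants without treatment against 0.151 ± 0.157 (n = 8) in primary ones, a difference on the log2 scale of 2.85 ± 0.83 (SE, adjusted p = 0.0213). RT raised it in primary tumors by 2.27 ± 0.74 (SE, adjusted p = 0.0259), while in transplants the value was 0.89 ± 0.95 (SE, adjusted p = 0.811). The receptor genes Ifngr1 and Ifngr2 passed in neither comparison, with values in primary tumors after RT of 0.22 ± 0.22 (SE, adjusted p = 0.496) and 0.15 ± 0.09 (SE, adjusted p = 0.271). Of the other genes of the interferon-gamma signalling list, Jak2, Socs1 and Socs3 also rose in irradiated primary tumors. Socs1, a feedback inhibitor of the receptor's kinases, rose by 1.10 ± 0.25 (SE, adjusted p = 0.00163) in primary tumors, and in transplants its value was 0.94 ± 0.35 (SE, adjusted p = 0.210).

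Among 11 other IRF, STAT and related factors, 7 rose after RT in primary tumors (Irf2, Irf5, Irf7, Irf8, Irf9, Stat2 and Batf2) and 5 in transplants (Irf2, Irf5, Irf7, Irf9 and Stat2), both under isotype antibody. The medians were 1.03 and 1.08, where 9.19% and 1.82% of all tested genes rose. Irf7, the amplifier of type I interferon production, rose by 2.46 ± 0.39 (SE, adjusted p = 2.20e-05) in primary tumors and by 3.10 ± 0.57 (SE, adjusted p = 0.00228) in transplants. Between untreated models Irf7 differed by -0.43 ± 0.46 (SE, adjusted p = 0.592), which did not pass, and Batf2 was the 1 factor of the list that was higher in transplants.

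Of 14 further interferon-gamma target genes, 12 rose after RT in primary tumors, 2 in transplants (Cxcl11 and Fcgr1), and 6 were higher in untreated transplants (Cxcl9, Cxcl11, Ido1, Psmb8, Ubd and Cd274). In these 3 comparisons, all under isotype antibody, the medians of the list were 1.87, 1.13 and 1.16. The shares of all tested genes were 9.19%, 1.82% and 3.88%. Cxcl9, a chemokine for activated T cells, was higher in untreated transplants by 2.75 ± 0.64 (SE, adjusted p = 0.00366) and rose after RT in primary tumors by 3.26 ± 0.59 (SE, adjusted p = 1.04e-04). Cd274, which encodes PD-L1, was higher in untreated transplants by 1.76 ± 0.44 (SE, adjusted p = 0.00653). Of 14 genes stimulated mainly by type I interferon, all rose after RT in both models under isotype antibody, by 1.84 to 2.65 in primary tumors and 2.10 to 3.39 in transplants, and for untreated transplants against primary tumors their values were -1.20 to -0.16, with adjusted p-values of 0.180 or more. Of all tested genes, 9.19% and 1.82% rose in these primary tumors and transplants. Under anti-PD-1, 14 of 14 rose after RT in primary tumors and 2 of 14 in transplants (Oas2 and Ifit2). There 7.92% and 0.538% of all tested genes rose. The medians of the 14 under anti-PD-1 were 1.80 in primary tumors (groups of 8) and 1.98 in transplants (groups of 4). Within transplants both the count and the median were lower under anti-PD-1 than under isotype antibody, where 14 of 14 rose with a median of 2.73. Rsad2, the antiviral gene that encodes viperin, had a log2 fold change of 3.39 ± 0.67 (SE, adjusted p = 0.00357) after RT in transplants given isotype antibody. Between untreated models its value was -0.85 ± 0.55 (SE, adjusted p = 0.346). Side by side under isotype antibody, the medians for the 10 genes and for these 14 were 1.41 and 2.73 after RT in transplants. They were 2.27 and 2.08 after RT in primary tumors, and 1.37 and -0.58 for untreated transplants against primary tumors. The differences between the lists were not tested. Of the type I and III interferon genes, 7 were in the table and 1, Ifnb1, passed the filter on low counts. Ifnb1 rose after RT in primary tumors given isotype antibody by 2.52 ± 0.68 (SE, adjusted p = 0.00723) from a level near 0 (0.111 ± 0.189 CPM, SD, n = 8) to 0.644 ± 0.377 CPM. In transplants given isotype antibody its value was 2.82, from 0.126 ± 0.0163 to 0.904 ± 0.915 CPM (SD, n = 4), which did not pass. Under anti-PD-1 the values were 1.73 in primary tumors and 3.13 in transplants, and neither passed.

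**Figure D3:**
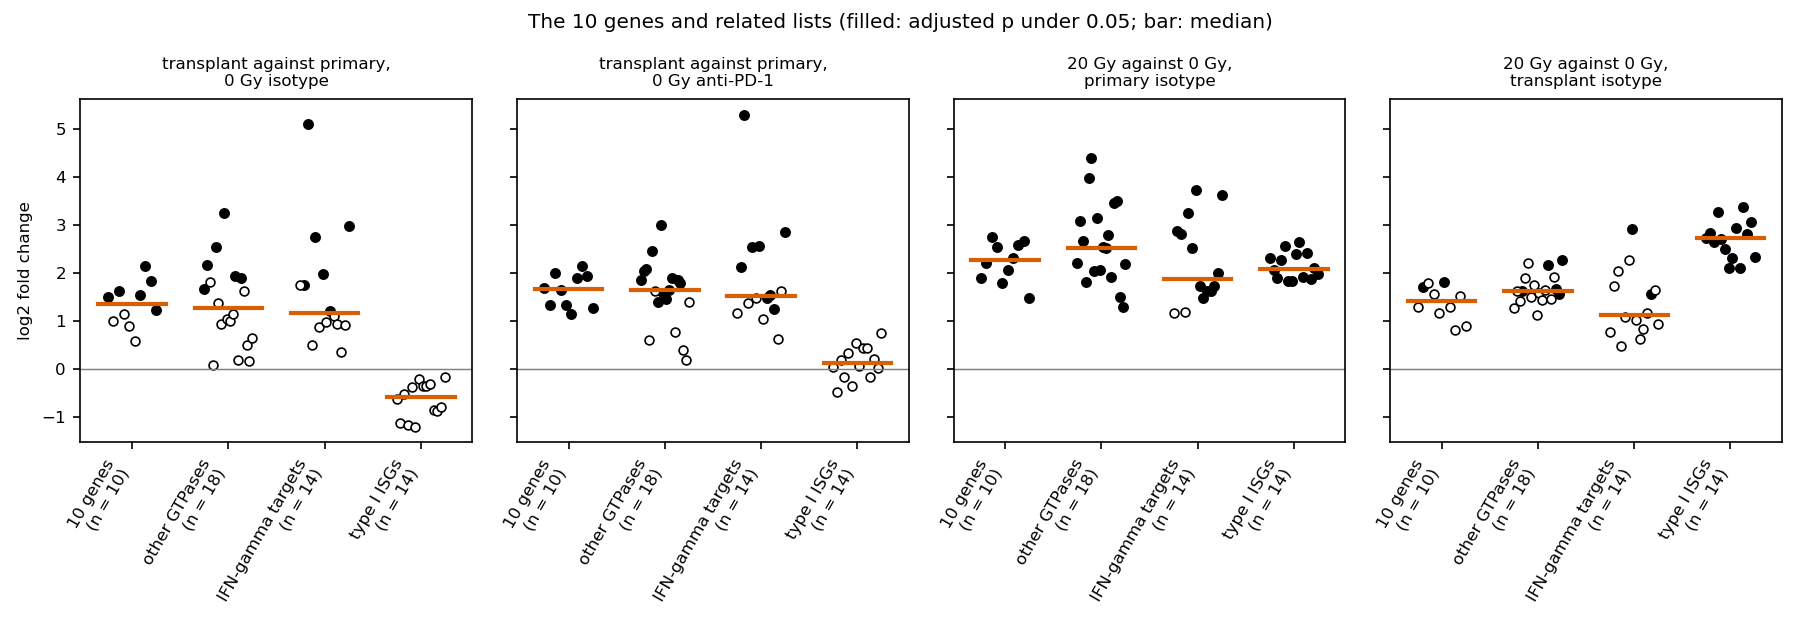
Log2 fold change (vertical axis) of the 10 genes and of 3 related lists (horizontal axis) in 4 comparisons. Each point is a gene, filled at an adjusted p under 0.05, and the bar is the median of the list. The type I interferon-stimulated genes (ISGs) lie at or below 0 for untreated transplants against primary tumors and above 2 for RT in transplants, where 2 of the 10 genes are filled.

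Levels of Ifng and of the 10 genes were compared across tumors. Over the 48 tumors Pearson's r on log2 CPM ran from 0.68 (Gbp3) to 0.89 (Irf1), and Spearman's rho from 0.66 to 0.90, each with a permutation p of 1e-05, the smallest that 100000 permutations can give. This pooled relation spans the 2 models. Within the 32 primary tumors r ran from 0.61 to 0.84 and rho from 0.59 to 0.82, with permutation p-values of at most 4.80e-04. Within the 16 transplants r ran from 0.71 to 0.88 and rho from 0.53 to 0.87, with permutation p-values of at most 0.0380. There were 10 relations in each set of tumors, and after Benjamini-Hochberg adjustment over these 10 the largest p-values were the same. Without the 2 tumors farthest from the median of Ifng, r was 0.63 to 0.88 over the remaining 46, 0.60 to 0.81 over 30 primary tumors and 0.70 to 0.86 over 14 transplants. After the mean of each group was subtracted, rho was 0.47 to 0.80 over the 16 transplants, where Gbp3 and Irgm1 no longer passed by rho (permutation p = 0.068 and 0.069), and 0.44 to 0.82 over the 48 tumors. The permutations did not keep tumors within their treatment group. Libraries share their depth and their makeup of cells, and the part of either in these relations was not tested.

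**Figure D4:**
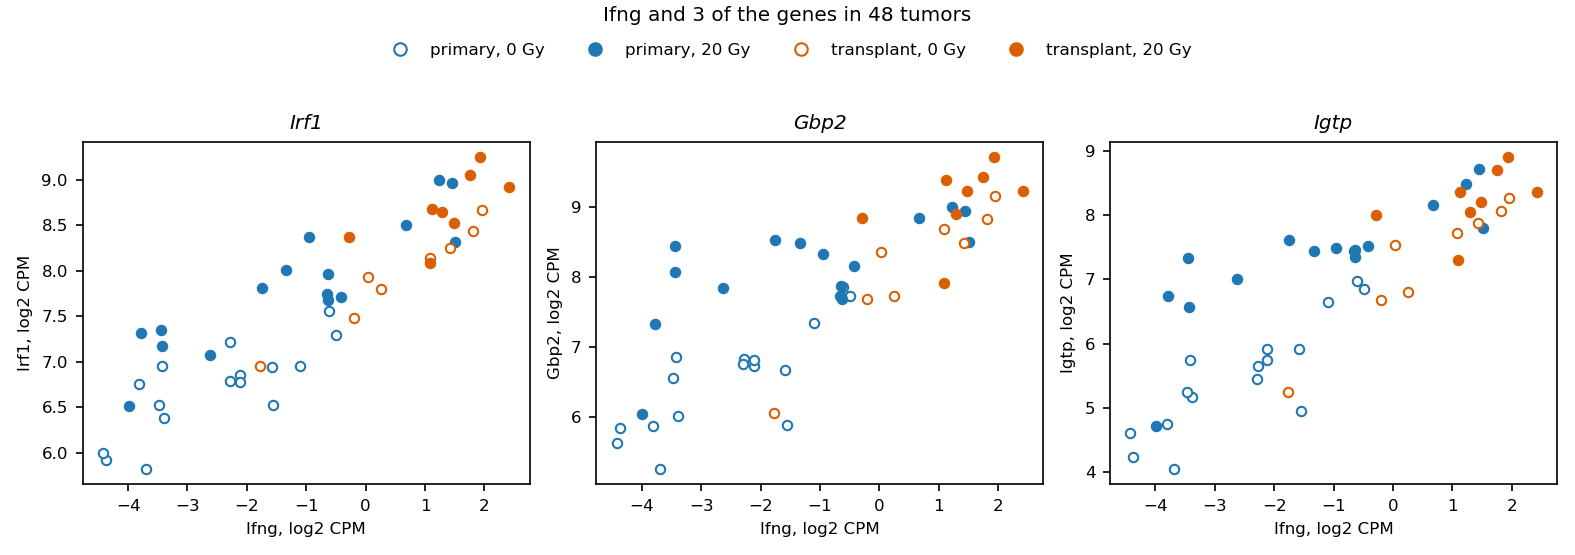
Log2 CPM of Irf1, Gbp2 and Igtp (vertical axes) against log2 CPM of Ifng (horizontal axis) in the 48 tumors, coloured by model and filled for 20 Gy. The points rise together in both models.

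The 10 genes also followed each other. Over the 45 pairs, Spearman's rho across the 48 tumors ran from 0.86 (Gbp3 with Iigp1) to 0.98 (Igtp with Iigp1), with a median of 0.94, and after subtraction of group means from 0.67 (Gbp3 with Gbp5) to 0.96 (Igtp with Iigp1). Of the other tested genes, those with a high median rho to the 10 included Gbp2b (0.96), Gbp4 (0.95), Tap1 (0.95), Irgm2 (0.95), Gm12185 (0.95), Batf2 (0.95), Gm12250 (0.95), Cxcl9 (0.94) and Socs1 (0.93). These belong to the lists described above. These correlations are descriptions over the same libraries.

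The 2 libraries of line 402230 have no replicate, and the following values are scaled over all 50 libraries with 95% Poisson intervals that cover counting error only. In the library labelled parental primary tumor, Irgm1 had 85.6 CPM (82.9 to 88.3), Gbp3 43.0 CPM (41.1 to 44.98) and Irf1 41.5 CPM (39.6 to 43.4). In the same library Gbp5 had 1.16 CPM (0.868 to 1.52), Gbp6 0.804 CPM (0.563 to 1.11), Iigp1 4.07 CPM (3.497 to 4.70) and Tgtp2 0.335 CPM (0.188 to 0.553). For 7 of the 10 genes this library lay below all 48 tumors. Irgm1, Gbp3 and Igtp were the exceptions, above 10, 4 and 1 of the tumors. No read of Ifng was counted there, which allows up to 3 reads.

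In the library labelled cell line, Iigp1 had 28.0 CPM (26.5 to 29.6), Gbp5 9.32 CPM (8.46 to 10.2) and Tgtp2 4.03 CPM (3.47 to 4.65). Irf1 had 61.3 CPM (59.1 to 63.6) and Gbp2 46.2 CPM (44.3 to 48.2), against 54.6 to 120.2 and 37.2 to 158 CPM in untreated primary tumors. Relative to the library labelled parental primary tumor, levels were 12.03 times as high for Tgtp2, 8.02 times for Gbp5 and 1.48 times for Irf1, and 0.449 times for Irgm1, the highest member of the set in that library. With 1 library each, these are values of those libraries and not of a tumor or a cell line in general.

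**Figure D5:**
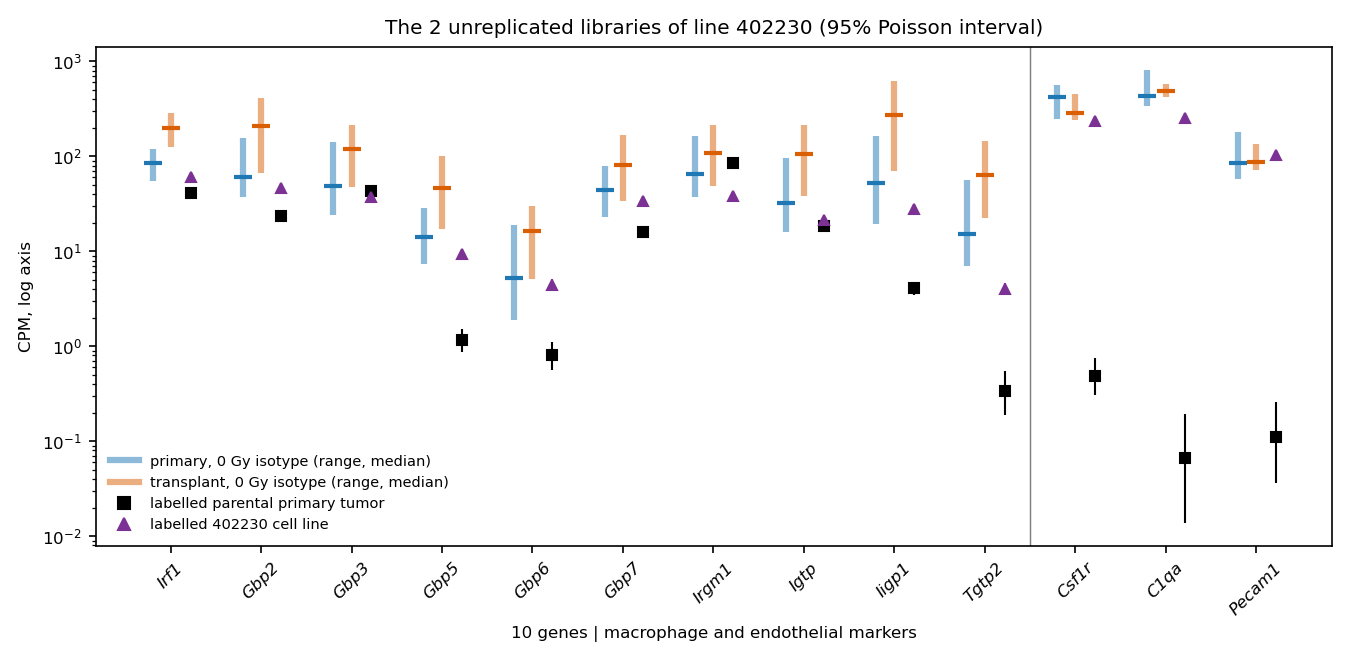
CPM on a log axis of the 10 genes and of 3 markers (macrophage Csf1r and C1qa, endothelial Pecam1) in the 2 unreplicated libraries of line 402230, with 95% Poisson intervals, beside the range and median of untreated primary and transplant tumors. The library labelled parental primary tumor (squares) lacks the markers and the library labelled cell line (triangles) has them at or near the tumor levels.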

How the data were processed

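The deposited values were raw counts per gene, made by the authors with HTSeq after trimming (Trimmomatic 0.36) and alignment to mm10 (STAR). The submitters' processing notes give the STAR version as 5.5.4b, which differs from the version named in the paper. The strand setting of the counting is not given in the sources used here. Libraries were poly(A) selected. The table held 37469 genes and 50 libraries, of 31810461 to 54008259 counts per tumor.

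Groups came from the labels. The 10 genes and all lists were chosen with earlier results of these data known. Genes passing edgeR's filterByExpr (19327) were fitted over the 48 tumors with 1 mean per group, using TMM scaling and edgeR 4.0.16 (robust quasi-likelihood test, R 4.3.3), with Benjamini-Hochberg adjustment over all tested genes and a threshold of 0.05. There were 14 comparisons of 2 groups and 5 of differences in response. The fit was tested on simulated data. CPM use the TMM-scaled library total, and log2 CPM a prior count of 1. Alternatives were DESeq2 1.42.0, limma 3.58.1 (voom), RLE scaling, no filter, a fit of each comparison's own groups, a muscle covariate, the library labelled parental primary tumor added to the untreated primary group, and leaving out each tumor. Permutation tests and correlations used scipy 1.17.1. Genes named outside the 10 are members of the lists, or those with the highest median rho to the 10. Not every gene of the lists is reported here.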

Additional observations from a re-analysis of the deposited data

Results flagged for a closer look

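In 10 of the 80 sets of values (10 genes in 8 groups), the highest or lowest tumor lay farther from its nearest neighbour than Dixon's 95% critical value allows. Chance gives this in about 1 of 20 groups, and the 10 genes share their tumors, so these are not separate events. Primary 20 Gy anti-PD-1 replicate 5 was the tumor concerned for 5 genes, as the lowest of its group, at 5.87 log2 CPM of Gbp3, 5.42 of Gbp7, 5.81 of Irgm1, 4.58 of Iigp1 and 2.63 of Tgtp2. Primary 20 Gy isotype replicate 5 was the highest of its group for 3 genes, at 7.84 log2 CPM of Gbp5, 8.72 of Igtp and 9.76 of Iigp1. Among transplants of the combination group, replicate 4 was high in Gbp7, at 8.40 log2 CPM, and replicate 2 was low in Tgtp2, at 7.22 log2 CPM.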

How the results depend on the processing

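No paired analysis was made because the labels name no pairing of tumors between groups, and the replicate numbers used here follow accession order. Of the fold changes of single genes under the alternatives other than leaving out a tumor, 1284 kept direction and side of the threshold, 24 lost the call, 10 gained it and 12 changed sign. All 12 were in comparisons of anti-PD-1 with no call. For anti-PD-1 in primary tumors at 20 Gy, limma voom gave -0.052 for Gbp2, -0.12 for Gbp5 and -0.072 for Gbp7. For anti-PD-1 in transplants at 20 Gy, limma voom gave -0.020 for Gbp2, and Gbp3 was 0.0028 with RLE scaling, 0.0028 with DESeq2, 0.0047 in the fit of its own groups and 0.030 with the muscle covariate. For the difference between models in the response to anti-PD-1, Iigp1 was 0.23 with limma voom and 0.0076 with the muscle covariate, and with the library labelled parental primary tumor added Tgtp2 was -0.089 and Irf1 was -0.048. The number of the 10 genes called moved as follows, and the cause was not tested. Transplants against primary tumors after the combination gave 1 with limma voom. RT in primary tumors under anti-PD-1 gave 5 in the fit of its own groups, 7 with limma voom, and 9 without the filter or with the library labelled parental primary tumor added. RT in transplants under isotype gave 1 without the filter and 1 with that library, and 3 with DESeq2, limma voom or the muscle covariate. The combination in transplants gave 9 with DESeq2, 6 with limma voom, 2 without the filter and 2 with that library. Transplants against primary tumors gave 8 under anti-PD-1 without the filter or with that library, and 5 untreated in the fit of their own groups. Leaving out 1 tumor gave 1 to 9 for untreated transplants against primary tumors, 5 to 10 under anti-PD-1, and 0 to 1 after the combination. It gave 0 to 5 for RT in transplants under isotype, 8 to 10 for RT in primary tumors under anti-PD-1 and 0 to 8 for the combination in transplants. The relations of Ifng with Gbp3 and Irgm1 in the 16 transplants lost the threshold by rho when group means were subtracted, with values of 0.468 and 0.471. Groups of 4 limit the comparisons among transplants, and low counts limit Ifng.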

Other observations

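Ido1, which encodes an enzyme that breaks down tryptophan and belongs to the 14 interferon-gamma target genes, was higher in transplants than in primary tumors under all 4 treatments. It stood at 3.87 ± 2.80 CPM (SD, n = 4) in untreated transplants and 0.112 ± 0.118 CPM (n = 8) in untreated primary tumors. The differences were 5.11 ± 0.80 (SE; adjusted p = 4.59e-05) on the log2 scale untreated, 5.31 ± 0.77 (SE; adjusted p = 1.97e-05) under anti-PD-1, 4.35 ± 0.74 (SE; adjusted p = 2.66e-04) after RT and 2.96 ± 0.71 (SE; adjusted p = 0.0119) after the combination, by edgeR. Ido1 was singled out after its values had been seen. In the 2 comparisons after RT, edgeR called 0 of the 10 genes, where 2 and 5 had an unadjusted p under 0.05, as had 18.6% and 23.9% of all tested genes, and limma voom called 0 and 1, DESeq2 0 and 0. The combination group of primary tumors includes replicate 5, and Ido1 was not fitted without it.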
